A study of Mus musculus with 57 samples.

Results

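The levels of 6 of 18165 genes were followed across 57 mouse arrays: Mllt10, Nup98 and Hoxd13, the mouse counterparts of genes joined in leukemia fusions, and Bmi1, Commd3 and Dnajc1, which lie beside MLLT10 on the human chromosome and have been reported to rise with the CALM-AF10 fusion. All probe sets that the array annotation assigns to a single one of these genes were taken, which gave 18 of the 34842 single-gene probe sets, and 17 of the 18 passed the filter on low signals and were tested among 28025. The probe sets were found by gene name. Signals are log2 values made with RMA, so a difference of 1 is a doubling of signal. Levels of different probe sets are not comparable with each other.

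The 14 groups were formed by genotype, tissue and disease state. Mice carried vav-CALM-AF10 (CA10) or vav-NUP98-HOXD13 (NHD13), transgenes driven by the vav promoter, which is active across blood-forming cells, or were wild type. Leukemic spleens came from CA10 mice (6 arrays) and NHD13 mice (6 arrays) with clinical signs of leukemia. CA10 mice with no clinical sign gave spleen (5), lineage-negative marrow (3), whole marrow (3) and thymus (4). NHD13 mice with no clinical sign gave lineage-negative marrow (3), whole marrow (3) and thymus (3). No spleen of a healthy NHD13 mouse was analysed here. Wild-type mice gave spleen (2), lineage-negative marrow (3), whole marrow (6) and thymus (7), and 3 further wild-type whole marrows were labelled C57B6, the only strain the labels name. Wild-type tissue came from littermates of matched age where possible, ages in numbers are not given, and no animal was treated. The labels do not say that every array is a separate mouse, so p-values measure the spread between arrays.

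MLLT10, also called AF10, binds chromatin and works with the histone methyltransferase DOT1L, and its fusion with PICALM (CALM) occurs in acute myeloid and T-cell leukemias. NUP98 is a mobile part of the nuclear pore, and its fusion with the homeodomain gene HOXD13 occurs in myeloid malignancies. BMI1 is a core subunit of Polycomb repressive complex 1, which marks histone H2A and keeps stem and progenitor cells dividing, in part by holding down the cell cycle inhibitors of the Cdkn2a locus. COMMD3 belongs to a family of proteins that act in endosomal sorting, and DNAJC1 is a J-domain co-chaperone of the endoplasmic reticulum that works with BiP.

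The mouse neighbourhood keeps these genes together. In the RefSeq order of mouse chromosome 2, Skida1 was followed by Mllt10, Dnajc1, Commd3, Bmi1, Gm46725, Spag6 and Pip4k2a, with Mllt10, Commd3 and Bmi1 on the plus strand and Dnajc1 on the minus strand. Hoxd13 lies elsewhere on chromosome 2, and Nup98 on chromosome 7. The upstream sequences of Commd3 and Bmi1 are shown because these adjacent genes of 1 strand gave different results in leukemic spleen. Each is the RefSeq window of 250 bases before the annotated start on GRCm38.p6, plus strand, chr2:18672185-18672434 for Commd3 and chr2:18676768-18677017 for Bmi1, with the letters CACGTG in capitals.
Commd3: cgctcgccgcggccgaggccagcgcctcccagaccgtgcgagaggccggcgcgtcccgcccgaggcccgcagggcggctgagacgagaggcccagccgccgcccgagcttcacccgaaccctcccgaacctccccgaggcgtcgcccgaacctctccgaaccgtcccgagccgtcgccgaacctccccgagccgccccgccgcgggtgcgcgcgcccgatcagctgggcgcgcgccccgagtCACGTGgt
Bmi1: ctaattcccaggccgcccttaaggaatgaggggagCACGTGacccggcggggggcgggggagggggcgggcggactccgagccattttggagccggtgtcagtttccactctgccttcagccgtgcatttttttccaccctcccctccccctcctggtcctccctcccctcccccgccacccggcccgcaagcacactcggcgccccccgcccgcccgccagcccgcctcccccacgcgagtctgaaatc
CACGTG reads the same on both strands and is the E-box hexamer. It began 8 bases before the Commd3 start and 215 bases before the Bmi1 start, and the windows held 78.8% and 70.4% G or C. The hexamer was also found in the windows of Hoxd13 (229 bases before the start) and Dnajc1 (125 bases before) and in none of the 3 windows of Mllt10 or the 2 of Nup98. Of all 32851 windows of that length, 6.0% held it. A match is a description of letters only.

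Across the series, values ran from 2.58 to 14.65 and array medians from 5.44 to 5.85. Of the 57 arrays, 10 had a narrower spread of signals (75th percentile 6.90 to 7.15, against 7.26 to 7.72 on the other 47): every CA10 whole marrow (3), 3 of the wild-type whole marrows (numbers 4, 5 and 6), array 3 of each lineage-negative group, and thymus 6 of the wild type. These are called narrow arrays below. The third NHD13 lineage-negative array also stood apart in RNA quality, with a Gapdh 3' minus 5' signal of 2.95 (log2). Healthy CA10 spleen 1 (2.09) and C57B6 marrow 2 (1.36) were high as well, and every other array read 0.85 or less. Wild-type thymus 2 had a Rag1 signal of 4.06, against 10.59 to 13.10 on the other 13 thymus arrays, so it lacked the signal of this immature thymocyte gene.

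The leading fusion partner probe sets did not rank the groups of the matching transgene together. On the leading Mllt10 probe set (1420870_at, the one with the highest mean), group means lay between 8.52 and 9.42. Wild-type thymus was highest and NHD13 lineage-negative marrow lowest, and the CA10 groups held places 3, 5, 8, 9 and 13 of 14. Hoxd13 was near background: its better probe set (1422239_at) exceeded the 40th percentile of the array on 26 of 57 arrays, and its group means lay between 4.53 and 5.49. The other Hoxd13 probe set (1440626_at) did so on 2 arrays and was not tested. Nup98 1434220_at ranged from 8.39 in CA10 leukemic spleen to 9.20 in NHD13 leukemic spleen. The NHD13 groups held places 1, 6, 8 and 11 of 14 on it, and places 1, 6, 10 and 12 on Hoxd13 1422239_at. The labels do not say whether human or mouse complementary DNA was used for the transgenes, and whether the probes lie in the retained part of each gene was not tested, so these levels do not check the transgenes. Picalm had no single-gene probe set.

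**Figure D1:**
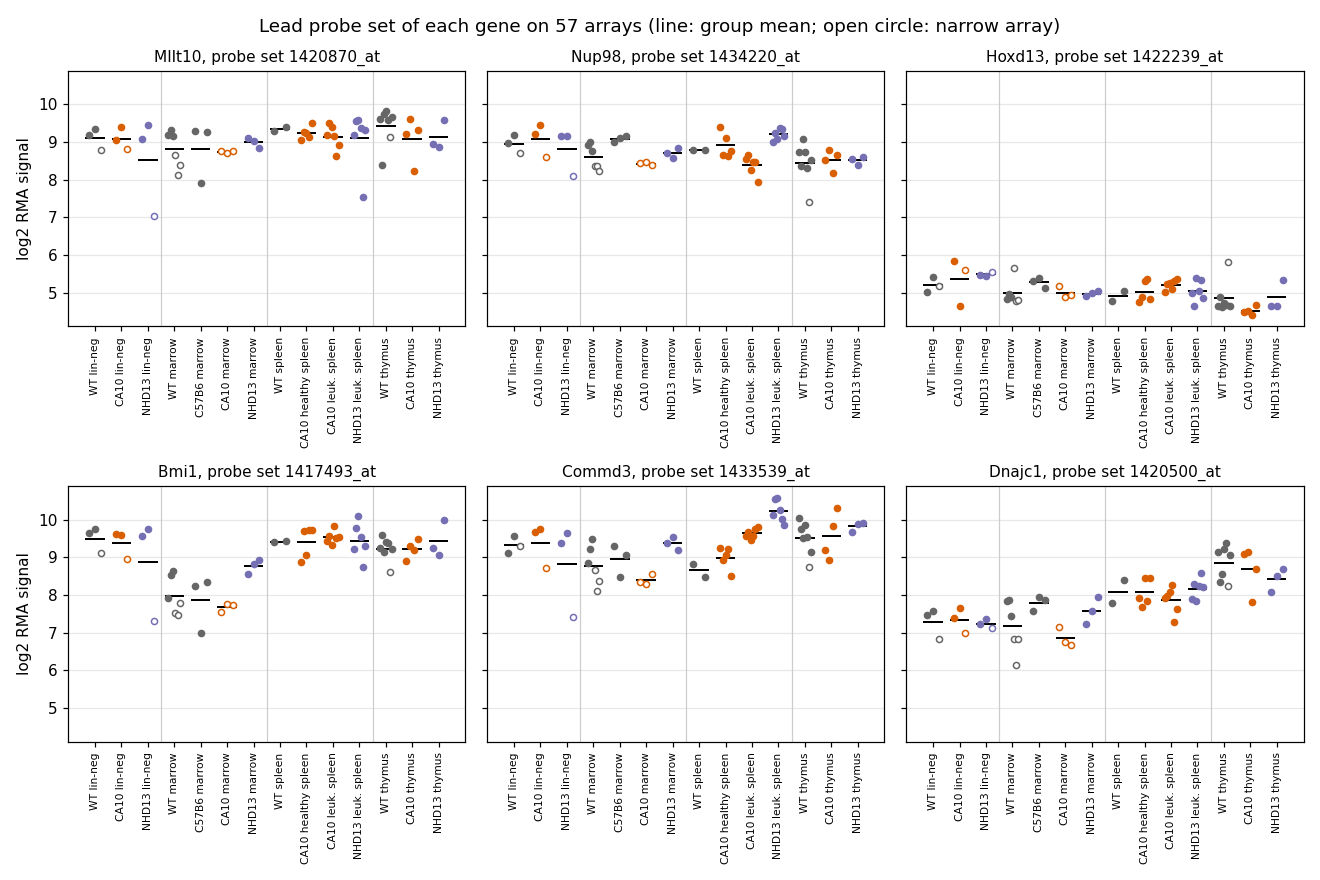
Log2 RMA signal of the leading probe set of each of the 6 genes on every array, by group; points are arrays, open circles are the 10 narrow arrays, lines are group means, and colours give genotype (orange CA10, purple NHD13, grey wild type including C57B6). Commd3 was highest in NHD13 leukemic spleen (mean 10.22), and Bmi1 was lower in the whole marrow groups (means 7.68 to 8.77) than in the spleen groups (9.41 to 9.53).

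Leukemic spleens of both models had more Commd3 signal than wild-type spleen, and their Bmi1 signal overlapped that of healthy spleens. On Commd3 1433539_at the 2 wild-type spleens read 8.83 and 8.47, and the 5 clinically healthy CA10 spleens read 9.24, 8.92, 9.06, 9.21 and 8.50. The 6 CA10 leukemic spleens ranged from 9.45 to 9.79 with a median of 9.62, and the 6 NHD13 leukemic spleens from 9.85 to 10.58 with a median of 10.18. Every leukemic array was above all 7 non-leukemic ones, and the ranges of the CA10 and NHD13 leukemias did not overlap. CA10 leukemic spleen exceeded wild type by 0.98 ± 0.21 (log2, SE; 95% interval 0.55 to 1.42; 1.97-fold; limma adjusted p = 0.0132), and healthy CA10 spleen by 0.65 ± 0.15 (1.57-fold; adjusted p = 0.0226). NHD13 leukemic spleen exceeded wild type by 1.57 ± 0.21 (1.14 to 2.01; 2.97-fold; adjusted p = 6.30e-05). The comparisons with wild type share the same 2 control arrays. The direct difference between the leukemias, CA10 minus NHD13, was -0.59 ± 0.15 (adjusted p = 0.00651).

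The second Commd3 probe set (1454642_a_at), made from the same database sequence, gave like sizes and weaker calls. It read 8.33 and 8.08 in wild-type spleen, 8.21 to 9.16 (median 8.52) in healthy CA10 spleen, 8.74 to 9.81 (median 9.23) in CA10 leukemic spleen and 9.43 to 10.35 (median 9.78) in NHD13 leukemic spleen. Both leukemias were above both wild-type arrays, and CA10 leukemic spleen overlapped the healthy CA10 and NHD13 leukemic groups. Its differences from wild type were 1.02 ± 0.28 in CA10 (adjusted p = 0.0351) and 1.62 ± 0.28 in NHD13 leukemic spleen (adjusted p = 0.000450). Its difference between leukemic and healthy CA10 spleen, 0.61 ± 0.20, did not pass the test (adjusted p = 0.0835). Healthy CA10 spleen exceeded wild-type spleen by 0.33 ± 0.21 on 1433539_at (-0.11 to 0.78; adjusted p = 1.00), which was not called.

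With only 2 wild-type spleens, the CA10 call depended on each of them. Without wild-type spleen 1 the difference of Commd3 1433539_at was no longer called (adjusted p = 0.103), and likewise without wild-type spleen 2 (adjusted p = 0.217). The difference from healthy CA10 spleen was not called without healthy spleen 5 (adjusted p = 0.0753) or without leukemic spleen 6 (adjusted p = 0.0509). The second probe set lost its CA10 call against wild type without wild-type spleen 1 (adjusted p = 0.158) or 2 (0.294) and without leukemic spleen 2 (0.0520) or 6 (0.0546). Its difference from healthy CA10 spleen was called without healthy spleen 1 (0.74, adjusted p = 0.0313). Between the leukemias it differed by -0.60 ± 0.19 (adjusted p = 0.0294), which was lost without CA10 spleen 1 or 3 or NHD13 spleen 2, 3 or 4 (adjusted p from 0.0521 to 0.0729). In NHD13 leukemic against wild-type spleen, both Commd3 probe sets passed the test whichever single array was left out.

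Bmi1, the neighbour 3' of Commd3, did not pass the test in any spleen comparison. On 1417493_at the wild-type spleens read 9.41 and 9.42, and healthy CA10 spleens 8.87, 9.69, 9.06, 9.73 and 9.71. CA10 leukemic spleens ran from 9.33 to 9.82 (median 9.52) and NHD13 leukemic spleens from 8.73 to 10.09 (median 9.42). All 4 groups overlapped. The difference between CA10 leukemic and wild-type spleen was 0.11 ± 0.28, with a 95% interval of -0.48 to 0.71, and against healthy CA10 spleen it was 0.12 ± 0.21 (-0.32 to 0.56). In NHD13 leukemic spleen the difference from wild type was 0.03 (-0.57 to 0.62). The second Bmi1 probe set (1448733_at) differed by -0.13 ± 0.23 in CA10 leukemic spleen (-0.60 to 0.34). A rise of Bmi1 signal above 0.71 (log2) in CA10 leukemic over wild-type spleen thus lay outside the 95% intervals of both probe sets, and smaller changes could not be resolved with 2 controls.

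**Figure D2:**
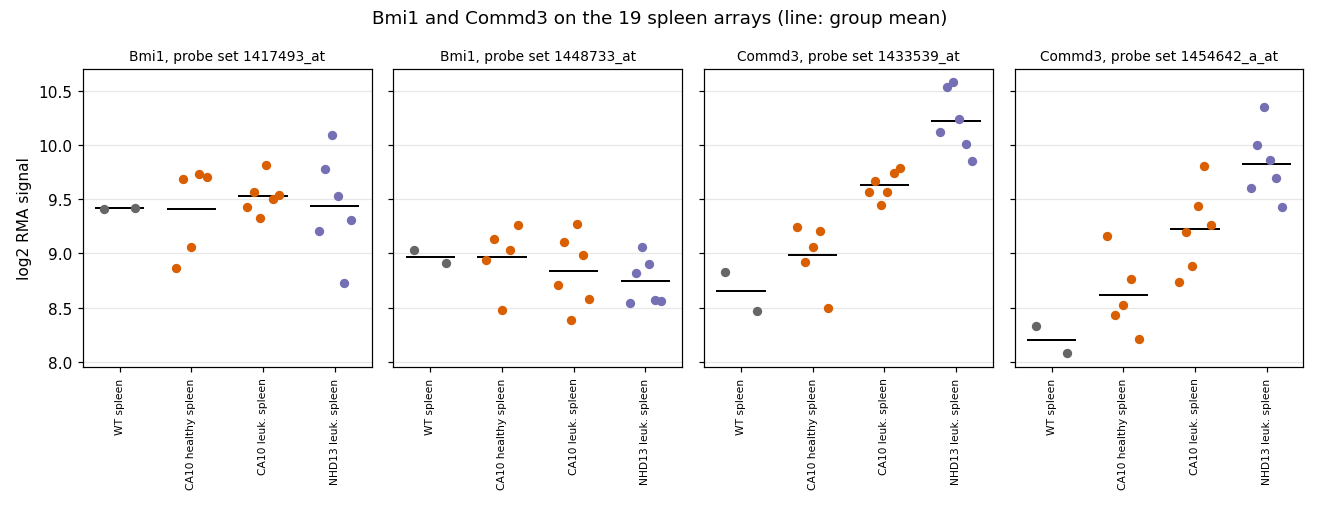
Log2 RMA signal of both Bmi1 and both Commd3 probe sets on the 19 spleen arrays, by group; points are arrays and lines group means. Commd3 1433539_at stood at 9.45 or more on all 12 leukemic arrays and at 9.24 or less on the 7 others, and the Bmi1 groups overlapped.

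Dnajc1, on the other side of Commd3, had 6 probe sets that did not move together. Its leading probe set (1420500_at) read 7.79 and 8.39 in wild-type spleen, 7.28 to 8.27 (median 7.95) in CA10 leukemic spleen and 7.83 to 8.58 (median 8.22) in NHD13 leukemic spleen, with all groups overlapping. The differences from wild type were -0.22 (-0.78 to 0.34) and 0.08 (-0.48 to 0.64). In NHD13 leukemic spleen 1447649_x_at was lower by -0.92 ± 0.25 (adjusted p = 0.00972) and 1459791_at by -0.92 ± 0.28 (adjusted p = 0.0203), 2 probe sets made from 1 database sequence. In the same comparison 1453372_at was higher by 0.87 ± 0.23 (adjusted p = 0.00798). All 3 were no longer called without wild-type spleen 1 (adjusted p between 0.144 and 0.198), and 1459791_at also without wild-type spleen 2 (adjusted p = 0.0651). Between the leukemias 1453372_at was called only without CA10 spleen 4 (-0.47, adjusted p = 0.0387). No direction is therefore given for Dnajc1 as a gene in leukemic spleen.

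The 2 Nup98 probe sets also differed. On 1434220_at the wild-type spleens read 8.79 and 8.78, healthy CA10 spleens 8.63 to 9.41 (median 8.77), CA10 leukemic spleens 7.93 to 8.65 (median 8.47) and NHD13 leukemic spleens 9.01 to 9.38 (median 9.20). The CA10 and NHD13 leukemias did not overlap, and CA10 was lower by -0.82 ± 0.14 (adjusted p = 0.000525). Against wild type the differences were -0.40 in CA10 (adjusted p = 0.238) and 0.42 in NHD13 leukemic spleen (adjusted p = 0.124), neither called. The NHD13 difference was called with the Gapdh signal as a covariate (0.49, adjusted p = 0.0286) and with the probe sets of a gene averaged (0.75, adjusted p = 0.0104). The difference between leukemic and healthy CA10 spleen, -0.53 ± 0.15, was called (adjusted p = 0.0455) although the groups overlapped between 8.63 and 8.65. That call was lost without healthy CA10 spleen 1, 3 or 5 and without leukemic CA10 spleen 1, 3, 4, 5 or 6 (adjusted p from 0.0538 to 0.101), and with the Gapdh signal as a covariate the difference was -0.27 (adjusted p = 0.268). On 1439154_at, NHD13 leukemic spleen exceeded wild type by 1.08 ± 0.30 (adjusted p = 0.0121; adjusted p up to 0.129 when 1 wild-type spleen was left out), and CA10 leukemic spleen by 0.87 (adjusted p = 0.0853; 0.0346 with only those 2 groups in the fit).

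Counted over the 17 tested probe sets, 2 were called in CA10 leukemic against wild-type spleen, both of Commd3, which is 11.8%, beside 7.08% of all probe sets. Groups did not overlap for 6 of the 17, beside 32.0% of all probe sets. Against healthy CA10 spleen 2 were called (Commd3 higher, Nup98 lower), beside 6.26%, and groups did not overlap for 1, beside 5.08%. Healthy CA10 against wild-type spleen had 0 called by limma and 0 at an unadjusted p under 0.05, beside 0.00% called. In NHD13 leukemic against wild-type spleen 8 were called (47.1%), 5 higher and 3 lower, beside 31.2%, and 10 did not overlap, beside 41.3%. Between the leukemias 5 were called (29.4%), beside 27.4%, and 4 did not overlap, beside 12.6%. The share between the leukemias was thus near that of all probe sets, and the CA10 count against wild type came from 1 gene.

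**Figure D3:**
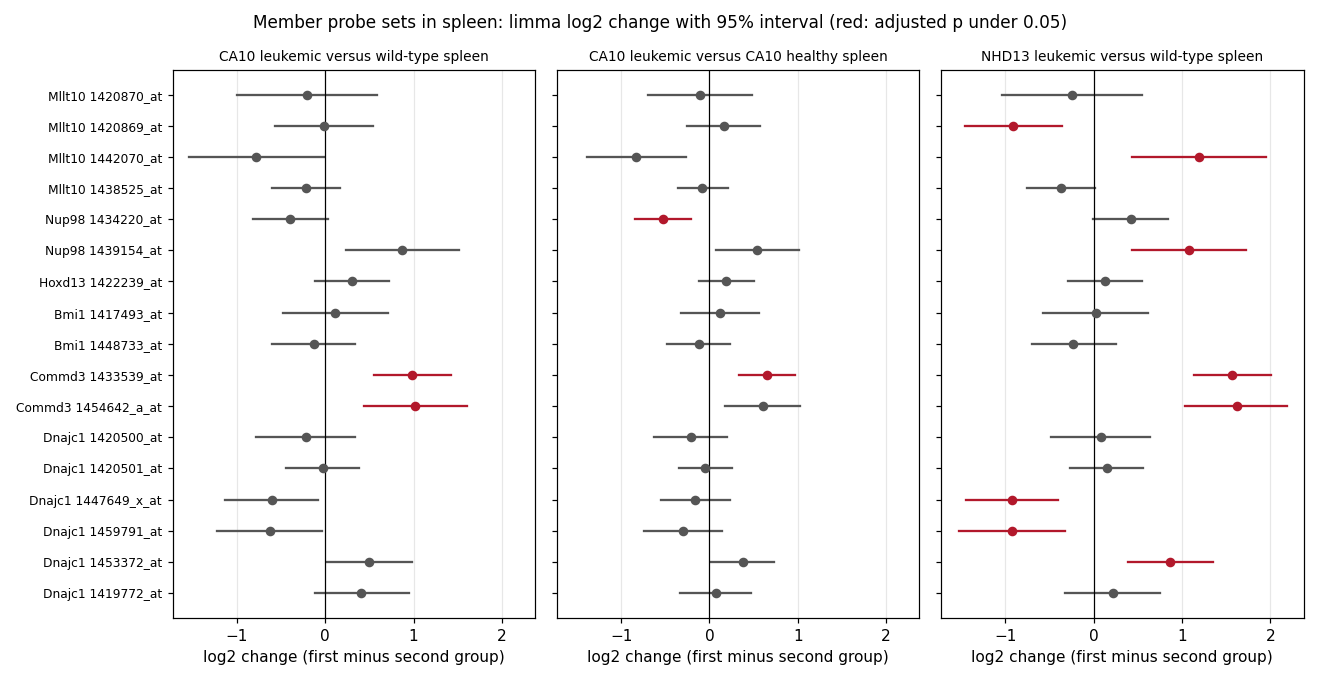
Log2 differences (x axis, points) with 95% intervals (lines) for the 17 tested probe sets in 3 leukemic spleen comparisons; red marks an adjusted p under 0.05. Both Commd3 probe sets lay above 0 in CA10 (0.98 and 1.02) and NHD13 (1.57 and 1.62) leukemic against wild-type spleen, and the Bmi1 intervals crossed 0.

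Marker genes of several cell types also differed between leukemic and wild-type spleen. The mean signal of 7 measured B cell markers of 8 was 11.38 to 11.61 in wild-type spleen, 9.08 to 11.74 in healthy CA10, 6.68 to 9.92 in CA10 leukemic and 5.68 to 7.31 in NHD13 leukemic spleen. That of 5 primary granule markers, among them Mpo and Elane, was 7.58 to 7.60 in wild type, 6.56 to 12.24 in healthy CA10, 10.94 to 12.67 in CA10 leukemic and 8.43 to 12.80 in NHD13 leukemic spleen. The 6 progenitor markers such as Kit and Cd34 stood at 6.55 to 6.73 in wild type, 7.48 to 9.15 in healthy CA10, 8.07 to 9.38 in CA10 leukemic and 7.30 to 9.47 in NHD13 leukemic spleen. In CA10 leukemic against wild-type spleen 4 of 7 B cell markers were called lower. Higher calls there were 1 of 5 primary granule markers (Ctsg) and 1 of 6 progenitor markers (Hoxa9). In NHD13 leukemic spleen these counts were 7 of 7, 4 of 5 and 2 of 6 (Hoxa9 and Gata2). Elane, Kit and Cd34 were called in neither. Of all 15310 genes tested with 1 probe set each, 804 were called higher and 342 lower in CA10, and 2900 and 1859 in NHD13 leukemic spleen. The 4 dendritic cell markers stood at 10.85 to 11.09 in wild type, 10.48 to 11.10 in healthy CA10, 10.01 to 12.44 in CA10 leukemic and 6.01 to 7.92 in NHD13 leukemic spleen. The part of these cells in the Commd3 difference was not tested. In bulk tissue, fewer cells of a type and less RNA per cell cannot be told apart.

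On 2 of the 3 minor Mllt10 probe sets the means of NHD13 leukemic spleen and C57B6 marrow stood apart from the other groups. On 1442070_at the 3 C57B6 marrows read 7.63, 7.94 and 7.68 and NHD13 leukemic spleens 6.01 to 7.54 (median 6.72), while the means of the other 12 groups lay between 4.59 and 5.58. The other wild-type whole marrows read 6.57, 5.31, 5.38, 4.43, 4.40 and 4.94, all below the C57B6 arrays. C57B6 exceeded them by 2.58 ± 0.39 (5.97-fold; adjusted p = 0.000357). NHD13 leukemic spleen exceeded wild-type spleen by 1.19 ± 0.36 (adjusted p = 0.0191) and CA10 leukemic spleen was below NHD13 leukemic spleen by -1.97 ± 0.26 (adjusted p = 3.28e-05).

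On 1420869_at the order was the opposite. C57B6 marrows read 5.75, 5.18 and 5.49 and NHD13 leukemic spleens 4.95 to 5.87 (median 5.36), and the means of the other 12 groups lay between 6.14 and 7.11. C57B6 was below the other wild-type marrows by -0.96 ± 0.20 (adjusted p = 0.00347), without overlap. NHD13 leukemic spleen was below wild-type spleen by -0.91 ± 0.26 (adjusted p = 0.0144). CA10 leukemic spleen was above NHD13 leukemic spleen by 0.89 ± 0.19 (adjusted p = 0.00210), with ranges that met at 5.87. Both NHD13 calls against wild type were lost when either wild-type spleen was left out (adjusted p between 0.0575 and 0.207). Leukemic minus healthy CA10 spleen on 1442070_at was -0.83 (adjusted p = 0.0727) and was called without healthy spleen 4 (-1.03, adjusted p = 0.0347). NHD13 whole marrows (5.51, 5.54 and 4.53 on 1442070_at) lay within the range of the unlabelled wild-type marrows. The third minor probe set, 1438525_at, did not share the pattern, with 5.23 in C57B6 marrow and 5.12 in NHD13 leukemic spleen among group means of 5.11 to 5.74. Nor did the leading Mllt10 probe set: NHD13 leukemic minus wild-type spleen was -0.24 (-1.04 to 0.55) and C57B6 minus other marrow 0.01 (-0.63 to 0.65).

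Of the 17 probe sets, 2 were called between C57B6 and the other wild-type marrows, both of Mllt10, beside 19.6% of all probe sets, and groups did not overlap for 3, beside 20.9%. Nup98 1434220_at was also called without wild-type marrow 1 (0.53, adjusted p = 0.0460) or 2 (0.55, adjusted p = 0.0298). When this marrow difference was subtracted from the leukemic spleen comparisons in the model of all arrays, no member was called in NHD13 leukemic against wild-type spleen. The Mllt10 differences then became 0.05 on 1420869_at and -1.39 on 1442070_at, and Commd3 1433539_at stood at 1.41 (adjusted p = 0.0632). The strain of NHD13 mice is not given in the labels, and its part in these differences was not tested.

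**Figure D4:**
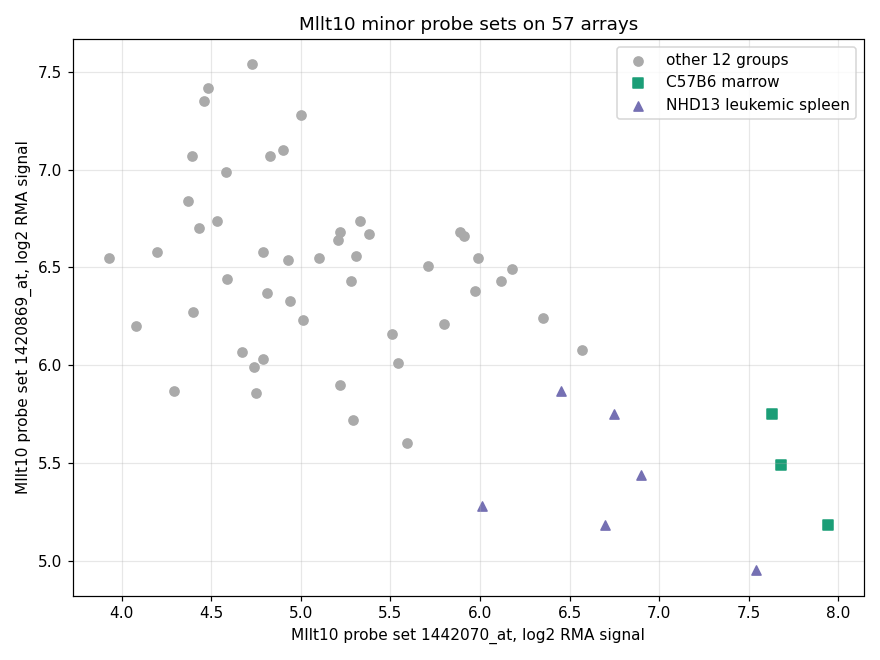
Log2 RMA signal of Mllt10 probe set 1442070_at (x axis) against 1420869_at (y axis) on the 57 arrays; squares are C57B6 marrows, triangles NHD13 leukemic spleens and circles the other 12 groups. The C57B6 marrows (7.63 to 7.94 on the x axis) lie furthest right, and the NHD13 leukemic spleens (6.01 to 7.54) lie to their left, reaching the range of the other arrays.

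In whole marrow of mice without clinical signs, the leading Bmi1, Commd3 and Dnajc1 probe sets followed the array set within the unlabelled wild type. Dnajc1 1420501_at went the other way, with means of 7.28 on its wide and 7.52 on its narrow arrays. On Bmi1 1417493_at wild-type marrows 1 to 3 read 7.92, 8.53 and 8.64, and the narrow wild-type marrows 4 to 6 read 7.53, 7.47 and 7.78. The CA10 marrows, all narrow, read 7.54, 7.77 and 7.73, and the NHD13 marrows, all wide, read 8.55, 8.82 and 8.93. NHD13 arrays thus overlapped the wide wild-type ones, and CA10 arrays lay among the narrow wild-type ones. The C57B6 marrows, also wide, ran from 6.98 to 8.35, and the lowest of them lay below every narrow marrow. NHD13 exceeded all 6 wild-type marrows by 0.79 ± 0.30 on Bmi1 (adjusted p = 0.255) and by 0.60 on Commd3 (adjusted p = 0.293), neither called. Against the wide marrows 1 to 3 the differences were 0.40 (Bmi1, adjusted p = 0.726) and 0.19 (Commd3, adjusted p = 0.855), and against the narrow marrows 4 to 6 they were 1.17 (adjusted p = 0.00425) and 1.00 (adjusted p = 0.00185).

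CA10 marrow mirrored this. Bmi1 differed from all 6 wild-type marrows by -0.30 (-0.94 to 0.34; adjusted p = 0.574). Within the narrow set it differed by 0.09, Commd3 by 0.03 and Dnajc1 by 0.25, none called. Against the wide marrows Commd3 was lower by -0.79 (adjusted p = 0.00850) and Dnajc1 by -0.86 (adjusted p = 0.00401). Over 17 probe sets, limma called 0 in CA10 against all wild-type marrows (0 at an unadjusted p under 0.05), beside 0.00%, and 0 in NHD13 (5 at an unadjusted p under 0.05), beside 0.814%.

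**Figure D5:**
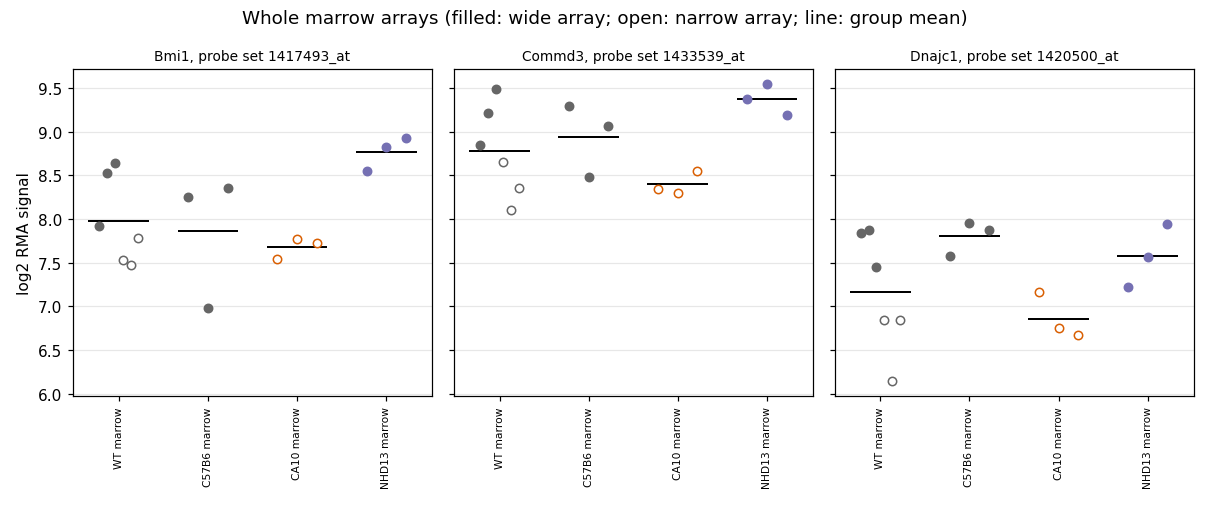
Log2 RMA signal of the leading Bmi1, Commd3 and Dnajc1 probe sets on the 15 whole marrow arrays; points are arrays, open circles narrow arrays, lines group means. On Bmi1 the wild-type arrays other than C57B6 split into 7.92 to 8.64 (wide) and 7.47 to 7.78 (narrow), with the CA10 arrays (7.54 to 7.77) beside the narrow ones. The C57B6 arrays, all wide, ran from 6.98 to 8.35.

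In lineage-negative marrow, which is depleted of mature blood cells, no member was called. Bmi1 1417493_at read 9.64, 9.74 and 9.11 in wild type, 9.62, 9.58 and 8.95 in CA10 and 9.57, 9.76 and 7.32 in NHD13. The third array of each group, the narrow one, was the lowest, and the NHD13 one lowest of all. CA10 minus wild type was -0.12 with an interval of -1.42 to 1.19, and NHD13 minus wild type was -0.61 (-1.92 to 0.69), which became -0.03 on wide arrays only. Same-numbered arrays deviated together here, more so arrays 2 and 3 (r from 0.67 to 0.76) than array 1 (0.19 to 0.23). With the number as a block the intervals were -0.45 to 0.22 and -1.61 to 0.39. The CA10 pairs differed by -0.02, -0.16 and -0.17, and the NHD13 pairs by -0.07, 0.02 and -1.79, the last from the array that stood apart. Limma called 0 of 17, and 0 were at an unadjusted p under 0.05, in CA10 against wild type (0.00% of all probe sets), NHD13 against wild type (0.0214%) and CA10 against NHD13 (0.00%). A doubling of Bmi1 1417493_at in CA10 lay outside the interval of the blocked fit and inside that of the fit without the block. The blocked interval holds only if the numbers mark pairs, which the labels do not say.

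Thymus gave no call, and its Bmi1 1417493_at intervals were tighter than those of the lineage-negative fit without the block. Bmi1 1417493_at was 9.23 ± 0.31 (SD, n = 7) in wild type, 9.21 ± 0.24 (n = 4) in CA10 and 9.43 ± 0.49 (n = 3) in NHD13 thymus. CA10 minus wild type was -0.01 ± 0.22 (SE; -0.47 to 0.45), and NHD13 minus wild type 0.20 (-0.31 to 0.71). On Mllt10 1420870_at the differences were -0.33 in CA10 (-0.98 to 0.32) and -0.28 in NHD13 thymus. Commd3 1433539_at differed by 0.05 (-0.54 to 0.65) and 0.30 (-0.35 to 0.96). Limma called 0 of 17 in CA10 against wild type (0 at an unadjusted p under 0.05; 0.00% of all), in NHD13 against wild type (0; 0.589%) and in CA10 against NHD13 (1, Nup98 1439154_at at -0.61; 0.132%). No member was called either without wild-type thymuses 2 and 6 and CA10 thymus 3, which stood apart.

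Whether a transgene acted differently between tissues was tested directly with F tests over all arrays. The last F test below asked another question, whether CA10 and NHD13 differed in any of 3 tissues. For CA10 across 4 tissues limma called 0 of 17 (0 at an unadjusted p under 0.05; lowest adjusted p 1.00), beside 0.00% of all probe sets. For NHD13 across 3 tissues it called 0 (3 at an unadjusted p under 0.05; lowest adjusted p 0.261), beside 0.564%. For CA10 against NHD13 in 3 tissues it called 0 (3 at an unadjusted p under 0.05; lowest adjusted p 0.106), beside 11.6%. Leaving out single lineage-negative arrays changed the calls of the last 2. Without NHD13 array 2, Bmi1 1417493_at was called in both (adjusted p = 0.0485 and 0.0289) and Commd3 1433539_at in the last (adjusted p = 0.0267). In that last test Bmi1 (adjusted p = 0.0444) and Dnajc1 1420501_at (adjusted p = 0.0427) were also called without NHD13 array 3, and Commd3 without CA10 array 3 (adjusted p = 0.0485). All 3 tests include whole marrow, where every CA10 array was narrow, every NHD13 array wide and 3 of the 6 wild-type arrays narrow. Bmi1 1417493_at means there were 7.68 in CA10 and 8.77 in NHD13, and between CA10 and NHD13 marrow genotype and array set cannot be told apart.

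Between wild-type tissues Bmi1 was lowest in whole marrow. On 1417493_at it was 7.98 ± 0.50 (SD, n = 6) in whole marrow, 9.50 ± 0.34 (n = 3) in lineage-negative marrow, 9.41 ± 0.01 (n = 2) in spleen and 9.23 ± 0.31 (n = 7) in thymus, the last 3 within their spread of each other. Lineage-negative marrow exceeded whole marrow by 1.52 ± 0.33 (SE; adjusted p = 0.000489), spleen by 1.44 ± 0.38 (adjusted p = 0.00997) and thymus by 1.25 ± 0.26 (adjusted p = 0.000133). The second probe set differed by 0.95 (adjusted p = 0.0321), 2.05 (adjusted p = 0.000196) and 1.53 (adjusted p = 6.63e-06). With the array set as a block the first probe set differed by 1.36, 0.96 and 0.91, all called. Leaving out either wild-type spleen ended the spleen call of 1417493_at (adjusted p = 0.107 and 0.165) but not that of 1448733_at. The lineage-negative call of 1448733_at was lost without lineage-negative array 1 or 2 or whole marrow 5 or 6 (adjusted p from 0.0507 to 0.281).

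Dnajc1 was highest in thymus on its leading probe set, at 8.85 ± 0.46 (SD, n = 7) against 7.17 ± 0.68 (n = 6) in whole marrow. The difference was 1.68 ± 0.23 (SE; adjusted p = 8.39e-08) with no overlap, and 3 further probe sets were called in the same direction (0.96 to 1.76), while 1420501_at differed by 0.03. In spleen 1447649_x_at (1.41, adjusted p = 0.0165) and 1459791_at (1.40, adjusted p = 0.0433) were called, and both calls were lost without either wild-type spleen (adjusted p from 0.0914 to 0.318). The call of 1459791_at was also lost without whole marrow 4, 5 or 6 (0.0771 to 0.105). The leading probe set, at 0.92 (adjusted p = 0.0804), was called without whole marrow 1 (1.05, adjusted p = 0.0382) or 2 (1.06, adjusted p = 0.0347). Commd3 1433539_at was higher in thymus than in whole marrow by 0.73 (adjusted p = 0.0133). That call was lost without whole marrow 5 (0.60, adjusted p = 0.0571) and, with the array set as a block, fell to 0.40 (adjusted p = 0.101). Over 17 probe sets, 2 were called between lineage-negative and whole marrow (24.0% of all), 4 in spleen (9.26%) and 7 in thymus (47.3%), and groups did not overlap for 2 (26.5% of all), 5 (29.1%) and 4 (13.9%). No fusion partner probe set was called between wild-type tissues in the fit as described, but some alternatives called one. With the array set as a block, Nup98 1434220_at was lower in thymus (-0.43, adjusted p = 0.00826) and 1439154_at lower in spleen (-1.01, adjusted p = 0.0248) than in whole marrow. After quantile normalization Nup98 1434220_at was lower in thymus (-0.37, adjusted p = 0.0143) and Mllt10 1420869_at higher in lineage-negative marrow (0.82, adjusted p = 0.00699), the latter also with only those 2 groups in the fit (0.62, adjusted p = 0.0351). Mllt10 1442070_at was lower in lineage-negative marrow with the replicate block (-0.99, adjusted p = 0.0183), and Mllt10 1420870_at higher in thymus with the Gapdh covariate (0.60, adjusted p = 0.0411). Without wild-type thymus 2, Mllt10 1420870_at (0.78, adjusted p = 0.0274) and Dnajc1 1419772_at (0.66, adjusted p = 0.0216) were called higher in thymus. On all arrays Mllt10 1420870_at and 1438525_at, the tested Hoxd13 probe set, and Dnajc1 1420501_at and 1419772_at were called in none of the 17 comparisons.

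The partners of these genes were described from lists, with 1 probe set per gene and 15310 genes tested. Of 11 COMMD family and CCC complex genes, which act with Commd3 in endosomal sorting, 4 were called higher and 0 lower in CA10 leukemic against wild-type spleen, with a median of 0.66, beside 804 higher and 342 lower and a median of 0.03 over all genes. Commd1 rose by 1.40 ± 0.29 (adjusted p = 0.0129) and Commd10 by 0.97 ± 0.25 (adjusted p = 0.0278). Against healthy CA10 spleen 5 were higher and 0 lower (median 0.50; all genes 645 and 280, 0.01). In NHD13 leukemic against wild-type spleen 4 were higher and 2 lower (median 0.29), beside 2900 and 1859 of all genes (median 0.04). Commd1 stood at 1.89 ± 0.29 (adjusted p = 0.000195) and Ccdc22, a CCC scaffold, at -0.89 ± 0.18 (adjusted p = 0.00172). Between the leukemias 3 were higher and 0 lower in CA10 (median 0.12), beside 1834 and 2048 of all genes (median -0.02). Commd3 1433539_at itself was lower in CA10 there (-0.59).

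Dot1l, the methyltransferase bound by AF10, was the 1 of 9 tested AF10 and DOT1L partners called in CA10 leukemic spleen against wild-type spleen and against healthy CA10 spleen. Of all 15310 genes, 804 were called higher and 342 lower against wild type, and 645 and 280 against healthy CA10 spleen. Dot1l ranged from 7.38 to 7.69 in CA10 leukemic spleen, 7.79 to 8.43 in healthy CA10 spleen and 8.01 to 8.50 in NHD13 leukemic spleen, and was 8.24 in both wild-type spleens. CA10 leukemic spleens lay below all others. They were lower than wild type by -0.72 ± 0.17 (adjusted p = 0.0208), than healthy CA10 by -0.58 ± 0.12 (adjusted p = 0.0149) and than NHD13 leukemia by -0.65 ± 0.12 (adjusted p = 0.000717). NHD13 leukemic minus wild-type spleen was -0.07 ± 0.17 (adjusted p = 0.785). In that comparison the exportin Xpo1 was called higher (0.61, adjusted p = 0.0126) and the AF10 relative Mllt6 lower (-2.82, adjusted p = 0.000401). Between the leukemias Mllt6 was called higher (1.47, adjusted p = 0.00368) and Mllt3 lower (-1.51, adjusted p = 0.0377) in CA10.

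Among 16 Polycomb repressive complex 1 partners of Bmi1, CA10 leukemic spleen had 0 called higher and 1 lower (Phc3, a Polyhomeotic subunit, -0.85 ± 0.22, adjusted p = 0.0304), with a median of 0.04, beside 804 higher and 342 lower of all 15310 genes. NHD13 leukemic spleen had 2 higher and 3 lower (median 0.15), beside 2900 and 1859 of all genes, with Yaf2 at 1.29 ± 0.16 (adjusted p = 3.22e-05) and Cbx7 at -1.05 ± 0.35 (adjusted p = 0.0317). Rnf2, the catalytic partner of Bmi1, differed by -0.03 and -0.08 in the 2 comparisons and was not called. Of 3 cell cycle inhibitors, Cdkn1a rose by 2.49 ± 0.49 in CA10 (adjusted p = 0.0117) and 2.20 ± 0.49 in NHD13 leukemic spleen (adjusted p = 0.00307). Cdkn2a, the classical Bmi1 target, stood at 0.84 (adjusted p = 0.443) and 1.33 (adjusted p = 0.112) and was not called. In wild-type thymus against whole marrow 10 of the 16 partners were higher and 1 lower (median 0.61; all genes 3890 and 3672, 0.00), with Cbx7 at 1.31 ± 0.22 (adjusted p = 3.37e-06).

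Of 23 nuclear pore partners of Nup98, NHD13 leukemic spleen had 15 called higher and 0 lower against wild type, with a median of 0.78, and CA10 leukemic spleen had 4 higher and 0 lower, with a median of 0.22. Over all 15310 genes the counts were 2900 higher and 1859 lower (median 0.04) in NHD13, and 804 and 342 (median 0.03) in CA10. Nup37, an outer ring subunit, rose by 2.18 ± 0.31 in NHD13 (adjusted p = 0.000116) and 1.45 ± 0.31 in CA10 leukemic spleen (adjusted p = 0.0143). Ndc1, a membrane anchor of the pore, rose by 1.95 ± 0.34 (adjusted p = 0.000523) and 1.25 ± 0.34 (adjusted p = 0.0352). Directly compared, 11 of 23 were lower in CA10 than in NHD13 leukemia and 0 higher (median -0.44; all genes 1834 higher and 2048 lower, -0.02). In wild-type mice 14 of 23 were higher and 0 lower in lineage-negative than in whole marrow (median 0.72; all genes 2231 and 1709, 0.05).

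Of 7 other tested genes around Mllt10, 0 were called in CA10 leukemic against wild-type or healthy CA10 spleen. Of all 15310 genes, 804 were called higher and 342 lower against wild type, and 645 and 280 against healthy CA10 spleen. In NHD13 leukemic against wild-type spleen Msrb2, a methionine sulfoxide reductase, rose by 1.15 ± 0.22 (adjusted p = 0.00119), while Pip4k2a, a lipid kinase on the far side of Spag6 from Bmi1, fell by 0.69 on the log2 scale (adjusted p = 0.0335) and the deubiquitinase Otud1 by 1.49 (adjusted p = 0.0105). All genes had 2900 higher and 1859 lower there. Between the leukemias 3 were higher and 2 lower in CA10, beside 1834 and 2048 of all genes. Otud1 stood at 1.32, Skida1 at 1.27, Nebl at -2.29 and Msrb2 at -0.58. Of 7 endoplasmic reticulum chaperones that act as Dnajc1 does or with it, 1 was higher in CA10 (Dnajb11, 0.80 ± 0.19, adjusted p = 0.0237) and 4 in NHD13 leukemic spleen (Dnajc25, 1.40 ± 0.20, adjusted p = 0.000101; Dnajb11, 1.21 ± 0.19, adjusted p = 0.000283), beside 804 and 2900 higher of all 15310 genes. Hspa5, which encodes BiP, was not called in either (0.18 and 0.22). Of 3 tested HOXD genes besides Hoxd13, 0 were called by limma in any leukemic spleen comparison. In the comparisons of transgenic mice without clinical signs with wild type, limma called 0 genes of these lists.

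Across the 14 group means, the genes most like Bmi1 1417493_at were Glmn (r = 0.97), Usp16 (0.96) and Jun (0.96), and those most like Commd3 1433539_at were Yme1l1, Chchd7 and 0610009B22Rik (0.95 each). The closest for Dnajc1 were Mterf2, Dbt and Smad5 (0.97 each), for Mllt10 Zfr (0.93), Rsrc2 (0.93) and Rbl2 (0.92), for Nup98 Metap1d (0.91), Pabpn1 (0.90) and Ror2 (0.89), and for Hoxd13 Slc29a2 (0.94), Bsn (0.92) and Gpr31b (0.89). Over the 57 single arrays the same pairs ran from 0.28 (Nup98 and Ror2) to 0.93 (Dnajc1 and Smad5). Bmi1 and Commd3 themselves had r = 0.63 over group means, and 0.73 over arrays after each group's mean was removed (0.65 without the third NHD13 lineage-negative array). These are descriptions over shared arrays and tissues, taken as the highest of many.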

How the data were processed

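Expression was measured on 57 Affymetrix mouse arrays. The deposited log2 values were made by the authors with RMA (version not given), per the submitters' processing notes, and their array medians were alike. RMA sets all arrays to 1 scale, so an even change of total RNA is not visible. Of 44943 probe sets, 64 controls, 931 naming several genes and 9106 naming none were left out. Probe sets above the 40th percentile of the array on at least 3 arrays were tested (28025).

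Group means were fitted per tissue with limma 3.58.1 in R 4.3.3, or over all arrays for wild-type tissues and F tests, with Benjamini-Hochberg adjustment over all probe sets and a threshold of 0.05. The number of arrays limits the precision. On simulated data for CA10 leukemic against wild-type spleen, 46% of log2 changes of 1 and 84% of changes of 2 were recovered. The simulation held 100 changes of each size among 28025 probe sets, with independent normal noise. The real comparison called 7.08% of probe sets, so these rates do not give the power of the real fit.

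Members and lists were chosen with earlier results of these data known. Named list genes are at most the 2 largest called rises and falls of a list, plus Dot1l, Rnf2, Pip4k2a, Cdkn2a and Hspa5. Same-numbered arrays correlated in each of the 3 lineage-negative comparisons (r from 0.19 to 0.76), so the numbers were taken as pairs there. In each of them array 1 was most like array 2 of the other group. Array 3 was the narrow array of each group, so pairing and array set cannot be told apart for it. The labels do not say what the numbers mark. Alternatives covered the filter, normalization, model, probe set summary, array set, Gapdh signal, replicate block and leaving out each array. No 2 arrays were identical (highest r = 0.9960). Gene names are the platform annotation's, and 34638 of 34842 single-gene probe sets matched RefSeq by gene ID.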

Additional observations from a re-analysis of the deposited data

Results flagged for a closer look

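Of 108 group and probe set combinations with 4 to 10 arrays, 6 held an array far from the rest, and chance gives about 1 in 20. NHD13 leukemic spleen 5 read 7.54 on Mllt10 1420870_at, against 9.19 to 9.59 on the other 5. Wild-type thymus 6, a narrow array, stood apart on 4 probe sets. It read 6.25 on Mllt10 1438525_at (others 4.97 to 5.40) and 5.81 on Hoxd13 1422239_at (others 4.64 to 4.88). It read 6.17 on Nup98 1439154_at (others 6.80 to 7.17) and 7.47 on Bmi1 1448733_at (others 8.35 to 8.93). Wild-type whole marrow 4, also narrow, read 5.65 on Hoxd13 1422239_at, against 4.78 to 4.97. The narrow wild-type marrows 5 and 6 read 4.78 and 4.82 there, not above the wide ones. The cause was not tested.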

How the results depend on the processing

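Counts are of called members among 17 probe sets. In CA10 leukemic against wild-type spleen the count of 2 became 1 after quantile normalization, 0 in the model of all arrays and 0 with the replicate block, and ran from 0 to 2 when 1 array was left out. Against healthy CA10 spleen the 2 became 1 with only the 2 groups compared, 1 with trend and robust settings, 1 with the Gapdh covariate, 0 in the model of all arrays and 0 with the replicate block (0 to 3 when 1 array was left out). In NHD13 leukemic against wild-type spleen the 8 became 4 in the model of all arrays and 0 with the C57B6 marrow difference subtracted (2 to 8). Between the leukemias the 5 became 3 and 0 under the same settings (4 to 6). In whole marrow the 0 of CA10 became 11 with the replicate block, 9 with wild-type marrows 1 to 3 and 5 with C57B6 controls. All 3 settings set narrow against wide arrays. The 0 of NHD13 became 9 with marrows 4 to 6, which set wide against narrow arrays, and 3 with C57B6 controls, all wide. The 2 of C57B6 became 1 with the replicate block. When 1 array was left out, counts ran from 1 to 2 for lineage-negative and 1 to 5 for spleen against whole marrow, 0 to 1 for the NHD13 F test and 0 to 2 for the CA10 and NHD13 F test.

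With the C57B6 difference subtracted, 2 of the 3 minor Mllt10 probe sets lost their calls and changed sign. In NHD13 leukemic against wild-type spleen they stood at 0.05 (1420869_at, limma adjusted p = 0.968) and -1.39 (1442070_at, adjusted p = 0.192). Between the leukemias they stood at -0.07 (adjusted p = 0.950) and 0.61 (adjusted p = 0.630). Averaging the probe sets of a gene gave 0.01 for Nup98 in leukemic against healthy CA10 spleen. The causes were not tested. In 8 comparisons (lineage-negative marrow and thymus, 3 each, healthy CA10 spleen and the CA10 F test) no member was called under any alternative run. Outside lineage-negative marrow, the numbers were not taken as pairs. In CA10 leukemic against wild-type spleen, same-numbered arrays had r of 0.19 and 0.11, and each was most like the array of its own number. With the replicate block, Commd3 1433539_at in that comparison was 0.97 (limma adjusted p = 0.0647) and was no longer called. Its difference lay within 0.80 to 1.16 over 18 alternatives (adjusted p 0.00820 to 0.217). In lineage-negative marrow the block changed no call. Dim probe sets such as Hoxd13, and 2 wild-type spleens, limit what could be seen.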
